A study of Rattus norvegicus with 12 samples.

Results

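The genes described here are the 41 of a list on fatty acid uptake and beta oxidation, set by gene function. They cover the supply of fatty acids to the heart muscle cell, their activation and storage, their transfer into mitochondria, the enzymes that shorten them there, and the proteins that take over the electrons. Of the 41 genes, 40 were matched to a row of the count table, and all 40 were among the 18182 genes tested of 30560 listed, since each had at least 10 counts over the 12 libraries. The expression of Cd36, which encodes a fatty acid translocase of the cell membrane, was not analysed here.

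RNA of heart sections from 12 male Wistar Han rats, fixed in formalin and embedded in paraffin, was sequenced with 1 library per rat. The 4 Sham rats had the chest opened without ligation and were given vehicle, the 4 MI rats had a permanent ligation of the left anterior descending coronary artery and were given vehicle, and the 4 MI+UA rats had the same ligation and were given urolithin A (UA), a compound that gut bacteria form from ellagitannins. Surgery was at 7 weeks of age, and all rats were dosed by gavage for 8 weeks. After an overnight fast the atria were removed, and sections were cut from the middle region of the ventricle; no source used here says that scar and surviving muscle were kept apart. Rats with small infarcts had been left out of the study after the first examination of the heart. Rat 66 is labelled as given UA but appears among the vehicle-treated rats in a table of heart function of the study, and it was kept in the group of its label. Each library held between 6228706 and 19031695 reads on genes, and between 50.2% and 58.6% of them came from the 13 mitochondrially encoded genes. Levels are given as CPM, the counts of a gene per 1000000 reads on genes after TMM scaling of library sizes, and a change is called at a Benjamini-Hochberg adjusted p-value under 0.05 in edgeR's quasi-likelihood test over all genes tested, with the 3 groups in one fit. SE stands for the standard error of a log2 fold change.

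The adult heart draws most of its energy from long-chain fatty acids. Lipoprotein lipase frees them at the capillary wall, acyl-CoA synthetases tie them to coenzyme A, and the carnitine shuttle carries them across the inner mitochondrial membrane. There the beta oxidation spiral removes acetyl-CoA units and hands electrons to the respiratory chain. Nuclear receptors of the PPAR and ERR families with the coactivator PGC-1 alpha are known regulators of many of these genes.

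Hadha and Hadhb encode the alpha and beta subunit of the mitochondrial trifunctional protein, which carries out the last steps of the spiral on long chains. The genes lie head to head, and the stretch between them is shown for that layout. Whether it bears on their levels was not tested. In RefSeq's GRCr8 annotation their start sites are 301 bases apart on chromosome 6, Hadha on the plus strand and Hadhb on the minus strand. The count table was made on the older build mRatBN7.2, so these positions belong to the sequence and not to the counts. The run below is chr6:31907551-31907800 on the plus strand, the 250 bases before the start of Hadha, and capitals mark the 200 bases that also lie within 250 bases before the start of Hadhb.
Hadha promoter: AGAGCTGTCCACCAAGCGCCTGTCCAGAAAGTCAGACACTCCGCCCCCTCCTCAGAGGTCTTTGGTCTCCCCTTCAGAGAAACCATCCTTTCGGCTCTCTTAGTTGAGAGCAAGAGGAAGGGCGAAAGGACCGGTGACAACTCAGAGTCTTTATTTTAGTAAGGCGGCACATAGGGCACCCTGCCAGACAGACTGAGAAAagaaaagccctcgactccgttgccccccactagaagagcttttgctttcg

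Promoter windows of 300 bases, from 250 before to 50 after the start, were matched by symbol for 34 of the 41 genes, Cd36 included. The hexamer AGGTCA, the core that many nuclear receptors bind, was searched on both strands. It was found in 9 of the 34 windows, or 26.5%, and in 16.2% of all 33469 rat windows of this length. The windows that held it were those of Slc27a1, Plin5, Acacb, Acadvl, Echs1, Hadhb, Eci1, Eci2 and Ucp3. A direct repeat of AGGTCA with 1 base between, the form of the PPAR response element, was in 0 of these windows in its exact form and in 0.0538% of all windows. The longer motif TCAAGGTCA, the form that ERR receptors bind and which contains AGGTCA, was in 0 of them and in 0.433% of all windows. With up to 1 mismatch allowed, a choice made after the exact search, the direct repeat was found in the window of Acadvl alone among these genes and in 0.439% of all windows. These are matches of letters, not sites of binding.

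The promoters of Acadvl and Slc27a1 are shown as examples, the first for the direct repeat just before its start site and the second because Slc27a1 had the largest fall of the uptake genes. The Acadvl run is chr10:55236706-55236955 on the minus strand, with the repeat of 13 bases in capitals, which carries 1 mismatch in its second hexamer. The Slc27a1 run is chr16:18312717-18312966 on the plus strand, with the hexamer, read on the opposite strand, in capitals. Both give the 250 bases before the start in GRCr8.
Acadvl promoter: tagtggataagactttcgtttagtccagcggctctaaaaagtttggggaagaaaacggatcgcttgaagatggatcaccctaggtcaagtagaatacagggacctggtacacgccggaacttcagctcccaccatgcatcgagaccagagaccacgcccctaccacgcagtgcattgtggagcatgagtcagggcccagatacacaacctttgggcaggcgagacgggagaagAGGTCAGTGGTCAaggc
Slc27a1 promoter: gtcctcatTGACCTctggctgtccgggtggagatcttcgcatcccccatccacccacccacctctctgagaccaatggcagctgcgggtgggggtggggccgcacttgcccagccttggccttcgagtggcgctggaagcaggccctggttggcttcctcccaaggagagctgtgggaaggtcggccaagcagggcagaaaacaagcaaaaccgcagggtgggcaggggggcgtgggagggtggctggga

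In MI versus Sham, which asks what infarction did to this pathway, 30 of the 40 genes tested were lower and 1, Slc27a6, with 0 counts in Sham, was called higher, while 9 were not called. Over all genes tested, 5.53% were called lower and 5.82% higher. Among genes with an average log2 CPM of at least 3, a level set after seeing the data, 11.4% were called lower, and 30 of the 36 genes of the pathway above that level were. The median log2 fold change of the 40 genes was -0.59, against 0.026 over all genes tested. The 30 genes called lower stood in MI at 55.6% to 82.0% of their fitted Sham level. Every MI rat lay below every Sham rat at 27 of the 40 genes, against 7.56% of all genes tested.

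**Figure D1:**
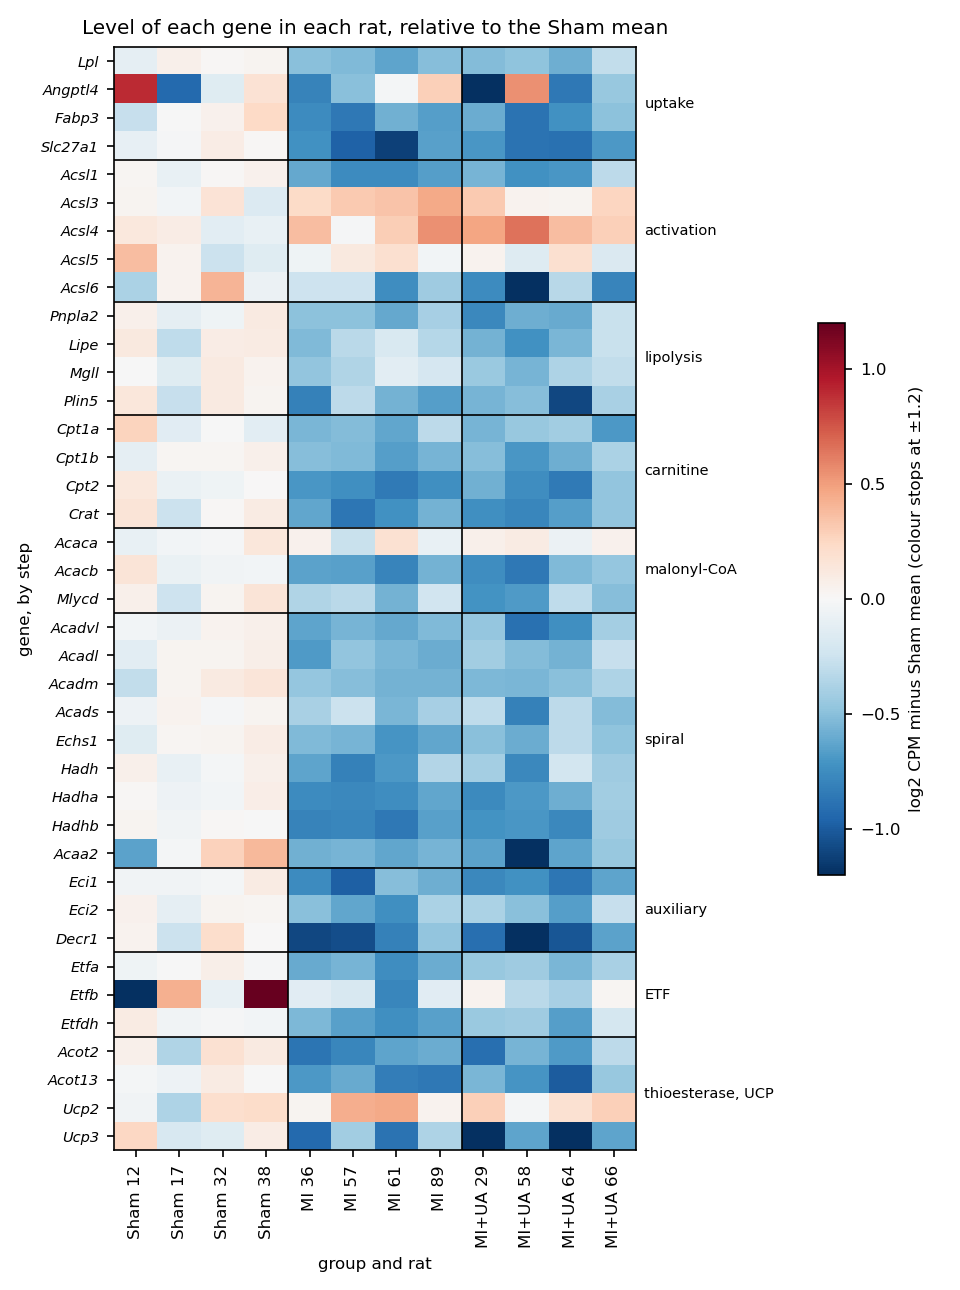
Colour shows the log2 CPM of each gene in each rat less the mean of the Sham rats, in rows grouped by step and columns grouped by Sham, MI and MI+UA; blue is lower than Sham, red is higher, and colour stops at 1.2 on either side. Slc27a6 is left out because its Sham counts were 0. The carnitine, spiral and auxiliary rows are blue in every MI and MI+UA rat, while Acsl3, Acsl4 and Ucp2 are mostly red.

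In whole heart sections, fewer cells of a type and less RNA per cell cannot be told apart. Cardiomyocyte markers moved with the pathway: of 15 tested, 11 were lower and 1, Myh7, was higher, and the median of their log2 fold changes was -0.41. Their summed level ranged from 53760.4 to 59057 CPM in Sham, from 38211 to 46013 CPM in MI and from 39488 to 51363 CPM in MI+UA. Of 10 fibroblast markers 8 were higher, with sums from 1278 to 1581 CPM in Sham, from 2412 to 4159.9 CPM in MI and from 2501 to 4249 CPM in MI+UA. Of 10 macrophage markers 9 were higher, with sums from 132 to 165 CPM in Sham, from 265 to 423 CPM in MI and from 224 to 454 CPM in MI+UA. Of 9 endothelial markers 1, Kdr, was lower (median -0.11), and of 10 smooth muscle and pericyte markers 4 were higher and 1 lower. Of 4 atrial markers 1, Nppa, was higher and 3 were not called, and the log2 fold changes of the 4 ran from -1.54 to 2.74. The 4 summed to 21.8 to 83.1 CPM in Sham, 194 to 485 CPM in MI and 189 to 352 CPM in MI+UA. Just 1 of the 4 passed the level cut used above, so the sum gives little weight to the rest. Whether it reflects atrial tissue was not tested. The share of a library's counts on the summary lines of the table, which hold reads assigned to no single gene, also separated MI from Sham. It was 51.7% to 53.1% in Sham, 55.2% to 56.7% in MI and 52.8% to 57.1% in MI+UA, which overlapped both. The part of these shifts in the falls of the fatty acid genes was not tested.

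At the capillary and cell membrane, 3 genes were lower and 1, Slc27a6, was called higher of the 5 tested. Lpl (ENSRNOG00000012181), the lipase that frees fatty acids from circulating lipoproteins, measured 1739, 1949.9, 1892 and 1916 CPM in the Sham rats, 1324, 1295, 1207 and 1312 CPM in the MI rats and 1304, 1340.2, 1249.7 and 1521 CPM in the MI+UA rats. Each rat with infarction had less Lpl than any Sham rat, and the means were 1874 ± 93.4 CPM (SD, n = 4) and 1284 ± 52.9 CPM (SD, n = 4) (log2 fold change -0.55, SE 0.078, adjusted p = 0.000106). Fabp3, the fatty acid binding protein of heart muscle, measured 361, 436, 453 and 518 CPM in the Sham rats, 260.1, 241, 295 and 277 CPM in the MI rats and 290.1, 238, 265 and 311 CPM in the MI+UA rats. Its groups did not overlap (log2 fold change -0.72, SE 0.10, adjusted p = 0.000119). Slc27a1 (ENSRNOG00000018170) encodes a fatty acid transport protein that also activates its cargo. It measured 85.9, 91.2, 97.8 and 93.0 CPM in the Sham rats, 55.6, 46.9, 42.3 and 58.7 CPM in the MI rats and 56.8, 49.7, 49.4 and 57.1 CPM in the MI+UA rats. This was the largest fall of the whole list (log2 fold change -0.85, SE 0.100, adjusted p = 1.21e-05), to 55.6% of the Sham level.

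Slc27a6, another member of the transporter family, was at 0 counts in all 4 Sham libraries and at 1 to 6 counts in the MI libraries and 5 to 16 in the MI+UA libraries. In CPM these were 0.439, 0.157, 0.208 and 0.489 in the MI rats and 0.914, 1.41, 0.677 and 0.731 in the MI+UA rats. A floor of 3 counts over the Sham group was 0.103 CPM. The level over the MI group was 3.48 times that floor and over the MI+UA group 8.69 times, with no allowance for counting error in these groups. Slc27a6 passed the minimum of 10 counts through the infarcted groups alone, so its calls by edgeR are a description and support nothing. DESeq2 gave it no adjusted p, and filterByExpr left it out. With 15 counts in the whole MI group this is a gene near the limit of detection. Angptl4, a secreted inhibitor of lipoprotein lipase, ranged from 3.61 to 12.8 CPM in Sham, from 3.95 to 8.39 CPM in MI and from 2.06 to 10.0 CPM in MI+UA and overlapped throughout (log2 fold change -0.35, SE 0.37, adjusted p = 0.637).

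Of the 5 acyl-CoA synthetases, which share the task of activating long-chain fatty acids, 1, Acsl1, was lower in MI and 4 were not called. Acsl1, the main form in heart muscle, measured 599, 554, 592 and 608 CPM in the Sham rats, 384, 348, 349 and 372 CPM in the MI rats and 399, 355, 363 and 472 CPM in the MI+UA rats. It fell in MI without overlap (log2 fold change -0.69, SE 0.087, adjusted p = 2.59e-05). Acsl4, which prefers arachidonic acid, measured 16.4, 16.0, 13.8 and 14.2 CPM in the Sham rats, 19.4, 14.9, 18.5 and 22 CPM in the MI rats and 20.9, 23.6, 19.5 and 18.3 CPM in the MI+UA rats. Rat 57 lay among the Sham rats and the other MI rats above them, and the difference was not called (log2 fold change 0.32, SE 0.13, adjusted p = 0.117). Acsl3, found at the endoplasmic reticulum and lipid droplets, measured 8.91, 8.52, 9.76 and 7.75 CPM in the Sham rats, 10.2, 10.8, 11.0 and 11.9 CPM in the MI rats and 10.8, 8.99, 8.93 and 10.4 CPM in the MI+UA rats. All MI rats were above all Sham rats, but the difference missed the threshold (log2 fold change 0.34, SE 0.13, adjusted p = 0.117). Acsl6 measured 6.15, 8.23, 10.6 and 7.63 CPM in the Sham rats, 6.73, 6.74, 4.77 and 5.95 CPM in the MI rats and 4.74, 3.47, 6.36 and 4.61 CPM in the MI+UA rats, with overlap between Sham and MI (log2 fold change -0.42, SE 0.20, adjusted p = 0.2). Acsl5 ranged from 11.4 to 17.7 CPM in Sham, from 13.2 to 15.7 CPM in MI and from 12.2 to 15.7 CPM in MI+UA, and its log2 fold change of 0.028 changed sign when single rats were left out.

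Among the 4 genes of stored fat, 3 were lower. Pnpla2, the lipase that starts the breakdown of triglyceride droplets, measured 214, 191, 198 and 221 CPM in the Sham rats, 146, 146, 134 and 156 CPM in the MI rats and 120.3, 137, 135 and 171 CPM in the MI+UA rats. It fell without overlap (log2 fold change -0.50, SE 0.096, adjusted p = 0.00159). Plin5, a droplet coat protein that ties droplets to mitochondria, measured 22.5, 16.9, 22.1 and 21.0 CPM in the Sham rats, 11.7, 16.5, 13.8 and 13.0 CPM in the MI rats and 13.9, 14.4, 9.61 and 15.6 CPM in the MI+UA rats. Its groups were also apart, if narrowly, with the highest MI rat just under the lowest Sham rat (log2 fold change -0.60, SE 0.15, adjusted p = 0.00865). Mgll, which cleaves the last fatty acid from glycerol, measured 91.6, 83.3, 98.8 and 94.8 CPM in the Sham rats, 66.3, 71.7, 84.1 and 80.2 CPM in the MI rats and 67.6, 62.3, 70.9 and 74.8 CPM in the MI+UA rats. It overlapped at 1 rat, and its call was the weakest of the list (log2 fold change -0.29, SE 0.091, adjusted p = 0.0471). The call was lost without rat 12, 32 or 38 of Sham or rat 36, 57 or 89 of MI, with adjusted p-values up to 0.148. Lipe, hormone-sensitive lipase, measured 50.8, 37.8, 49.7 and 50.2 CPM in the Sham rats, 32.3, 37.5, 41.3 and 37.0 CPM in the MI rats and 31.5, 28.3, 32.1 and 38.9 CPM in the MI+UA rats. Sham rat 17 lay within the MI range, and the difference was just short of the threshold (log2 fold change -0.35, SE 0.11, adjusted p = 0.0518), which it passed in 9 of 15 other fits.

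All 4 genes of the carnitine shuttle were lower in MI without overlap. Cpt1b (ENSRNOG00000010438), the muscle form of the outer-membrane enzyme that forms acylcarnitine, measured 288, 315, 316 and 324 CPM in the Sham rats, 219, 215, 196 and 210.4 CPM in the MI rats and 218, 192, 207 and 239 CPM in the MI+UA rats. Cpt1a, the liver form, measured 67.6, 51.4, 56.1 and 51.5 CPM in the Sham rats, 38.4, 39.4, 36.4 and 45.3 CPM in the MI rats and 38.2, 41, 42.1 and 34.9 CPM in the MI+UA rats. Both isoforms fell by similar amounts, by 0.57 and 0.51 on the log2 scale (adjusted p = 9.49e-05 for Cpt1b and 0.00258 for Cpt1a). Cpt2, which turns acylcarnitine back to acyl-CoA inside the mitochondrion, measured 223, 193, 197 and 205 CPM in the Sham rats, 126, 123, 114 and 123 CPM in the MI rats and 137, 122, 114 and 147 CPM in the MI+UA rats. Crat, which moves short acyl groups, measured 247, 186, 224 and 238 CPM in the Sham rats, 145, 122, 135 and 151 CPM in the MI rats and 133, 129.7, 141 and 161 CPM in the MI+UA rats. The falls were 0.75 for Cpt2 and 0.70 for Crat on the log2 scale (adjusted p = 9.01e-06 for Cpt2 and 8.98e-05 for Crat). The carrier Slc25a20, which swaps acylcarnitine for carnitine and is not on the list, measured 133, 122, 132 and 134 CPM in the Sham rats, 79.9, 90.6, 91.0 and 89.7 CPM in the MI rats and 81.5, 88.4, 93.0 and 102 CPM in the MI+UA rats (log2 fold change -0.57, SE 0.083, adjusted p = 0.000126). Slc22a5, the carnitine importer of the cell membrane, measured 12.7, 8.66, 12.8 and 13.0 CPM in the Sham rats, 7.90, 5.17, 10.8 and 8.55 CPM in the MI rats and 9.71, 10.3, 8.80 and 8.38 CPM in the MI+UA rats, and its fall was not called (log2 fold change -0.52, SE 0.18, adjusted p = 0.0685).

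Malonyl-CoA blocks Cpt1, and of the 3 genes that make or remove it, 2 were lower in MI and 1 was not called. Acacb, the carboxylase at the mitochondrial membrane, measured 336, 284, 292 and 295 CPM in the Sham rats, 193, 192, 174 and 203 CPM in the MI rats and 179.9, 167, 209 and 219 CPM in the MI+UA rats. It fell without overlap (log2 fold change -0.66, SE 0.092, adjusted p = 7.56e-05). Mlycd, the decarboxylase that removes malonyl-CoA, measured 40.0, 32.3, 39.2 and 42.6 CPM in the Sham rats, 29.8, 30.7, 25.8 and 32.7 CPM in the MI rats and 23.4, 23.9, 31.1 and 27.0 CPM in the MI+UA rats. Sham rat 17 lay inside the MI range (log2 fold change -0.37, SE 0.11, adjusted p = 0.0335). The Mlycd call was lost without rat 12, 32 or 38 of Sham or rat 36 or 61 of MI (adjusted p up to 0.118). Acaca, the cytosolic carboxylase of fatty acid synthesis, ranged from 35.1 to 41.1 CPM in Sham, from 31.0 to 42.3 CPM in MI and from 35.6 to 39.9 CPM in MI+UA. The log2 fold change came to -0.020 (SE 0.098), and this sign changed when single rats were left out.

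All 9 genes of the spiral were lower in MI, and 8 of them without overlap. The first step belongs to dehydrogenases that differ by chain length. Acadvl, for very long chains, measured 95.1, 93.0, 100.2 and 102 CPM in the Sham rats, 62.9, 66.3, 63.5 and 67.5 CPM in the MI rats and 70.5, 52.5, 58.5 and 73.6 CPM in the MI+UA rats. Acadl, for long chains, measured 336, 375, 375 and 384 CPM in the Sham rats, 229, 264, 251 and 244 CPM in the MI rats and 275, 256, 248 and 303 CPM in the MI+UA rats. Acadm, for medium chains, measured 105, 132, 139 and 143 CPM in the Sham rats, 93.6, 90.3, 86.9 and 87.1 CPM in the MI rats and 88.7, 88.1, 90.7 and 99.7 CPM in the MI+UA rats. Across these 3 the falls were close to each other, from 0.53 to 0.58 on the log2 scale, with standard errors from 0.082 to 0.096. Acads, for short chains, measured 81.5, 87.6, 84.3 and 86.9 CPM in the Sham rats, 64.8, 71.0, 58 and 64.6 CPM in the MI rats and 68.8, 48.5, 68.3 and 59.4 CPM in the MI+UA rats, the smallest fall of the spiral (log2 fold change -0.40, SE 0.10, adjusted p = 0.0115).

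The trifunctional protein had the largest falls of the spiral. Hadhb (ENSRNOG00000010800) measured 552, 525, 546 and 537 CPM in the Sham rats, 310.4, 313, 297 and 344 CPM in the MI rats and 329, 332, 316 and 401 CPM in the MI+UA rats. Its means were 540.1 ± 11.7 CPM (SD, n = 4), 316 ± 20.1 CPM (SD, n = 4) and 344 ± 38.4 CPM (SD, n = 4), and its adjusted p in MI versus Sham was the smallest of the list (log2 fold change -0.77, SE 0.083, adjusted p = 4.79e-06). Hadha (ENSRNOG00000024629) measured 208, 196, 201 and 216 CPM in the Sham rats, 121, 119.8, 122 and 133 CPM in the MI rats and 121, 128, 137 and 154 CPM in the MI+UA rats (log2 fold change -0.73, SE 0.083, adjusted p = 8.47e-06). Both subunits were apart between MI and Sham in every rat, which held for 8 of the 9 genes of the spiral. Echs1, the hydratase of shorter chains, measured 85.9, 96.6, 97.0 and 101 CPM in the Sham rats, 65.9, 64.3, 58 and 61.7 CPM in the MI rats and 66.8, 62.7, 76.1 and 67.9 CPM in the MI+UA rats (log2 fold change -0.60, SE 0.084, adjusted p = 8.10e-05). Hadh, the dehydrogenase of shorter chains, measured 285, 257, 269.5 and 286 CPM in the Sham rats, 176, 156, 169.8 and 214 CPM in the MI rats and 206, 159.9, 235 and 205 CPM in the MI+UA rats (log2 fold change -0.61, SE 0.11, adjusted p = 0.000658). In both genes the lowest Sham rat was above the highest MI rat. Acaa2, the thiolase that closes the spiral for shorter chains, measured 107, 164, 203 and 219.7 CPM in the Sham rats, 112, 114, 109 and 113 CPM in the MI rats and 108, 65.1, 108 and 122 CPM in the MI+UA rats. Sham rat 12 fell below all 4 MI rats, while the other Sham rats were above them (log2 fold change -0.63, SE 0.17, adjusted p = 0.0212). The Acaa2 call was lost in DESeq2 and without rat 32 or 38 of Sham or rat 61 of MI, with adjusted p-values up to 0.104.

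Unsaturated chains need extra enzymes, and all 3 of these were lower without overlap. Decr1, a reductase of dienoyl-CoA, measured 34.1, 27.7, 38.4 and 33.1 CPM in the Sham rats, 15.5, 15.8, 18.9 and 23.8 CPM in the MI rats and 17.7, 12.8, 16.2 and 21.3 CPM in the MI+UA rats. It had the largest fall outside uptake (log2 fold change -0.84, SE 0.15, adjusted p = 0.000844). Eci1 and Eci2 are isomerases that shift double bonds. Eci1 measured 33.6, 33.6, 34.0 and 37.0 CPM in the Sham rats, 20.5, 17.6, 24.3 and 23.0 CPM in the MI rats and 20.2, 20.8, 18.9 and 22.2 CPM in the MI+UA rats. Eci2 measured 70.5, 62.8, 69.2 and 69.2 CPM in the Sham rats, 48.0, 44.1, 40.8 and 52.1 CPM in the MI rats and 52.1, 47.8, 43.0 and 55.9 CPM in the MI+UA rats. Their log2 fold changes were -0.69 and -0.55 (edgeR adjusted p = 0.000168 and 0.000703).

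The electron transfer flavoprotein takes the electrons of the acyl-CoA dehydrogenases, and its oxidoreductase passes them to ubiquinone. Etfa, the alpha subunit, measured 137, 141, 149 and 140.4 CPM in the Sham rats, 93.1, 96.4, 84.6 and 94.0 CPM in the MI rats and 103, 106, 96.6 and 108 CPM in the MI+UA rats (log2 fold change -0.62, SE 0.075, adjusted p = 1.66e-05). Etfdh, the oxidoreductase, measured 209, 189.8, 193 and 191 CPM in the Sham rats, 135, 124, 118 and 125 CPM in the MI rats and 144, 146, 124 and 169 CPM in the MI+UA rats (log2 fold change -0.64, SE 0.089, adjusted p = 7.59e-05). Both fell in MI without overlap. Etfb, the beta subunit, had only 4 to 34 counts per Sham library and 9 to 20 per MI library, so a change of the size seen in its partner was not detectable (log2 fold change -0.65, SE 0.42, adjusted p = 0.375). Etfa had 886 to 1178 counts per Sham library and 615 to 1273 per MI library. Why Etfb had so few was not tested.

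Thioesterases release free fatty acid from acyl-CoA, and the uncoupling proteins Ucp2 and Ucp3 are carriers of the inner membrane. Acot2, a thioesterase of the matrix, measured 113, 84.6, 124 and 117 CPM in the Sham rats, 58.9, 62.9, 70.1 and 71.9 CPM in the MI rats and 58.1, 73.6, 67.5 and 87.3 CPM in the MI+UA rats (log2 fold change -0.73, SE 0.12, adjusted p = 0.000478). Acot2 has close paralogs, so reads that match more than one of them may not have been assigned to it in counting. Acot13, a thioesterase associated with mitochondria, measured 21.8, 21.2, 23.7 and 22.1 CPM in the Sham rats, 13.7, 14.6, 12.5 and 12.2 CPM in the MI rats and 15.2, 13.6, 11.1 and 16.2 CPM in the MI+UA rats (log2 fold change -0.75, SE 0.12, adjusted p = 0.000331). Ucp3 measured 32.1, 23.7, 24.6 and 28.9 CPM in the Sham rats, 14.2, 20.2, 14.6 and 21.0 CPM in the MI rats and 11.3, 17.5, 9.47 and 17.5 CPM in the MI+UA rats. All 3 were lower in every MI rat than in any Sham rat, and the Ucp3 call (log2 fold change -0.65, SE 0.18, adjusted p = 0.0182) was lost without rat 12 or 38 of Sham or rat 36 or 61 of MI, with adjusted p-values up to 0.0707. Ucp2 ranged from 195 to 294 CPM in Sham, from 258 to 347 CPM in MI and from 249 to 309 CPM in MI+UA and was not called (log2 fold change 0.23, SE 0.12, adjusted p = 0.269).

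**Figure D2:**
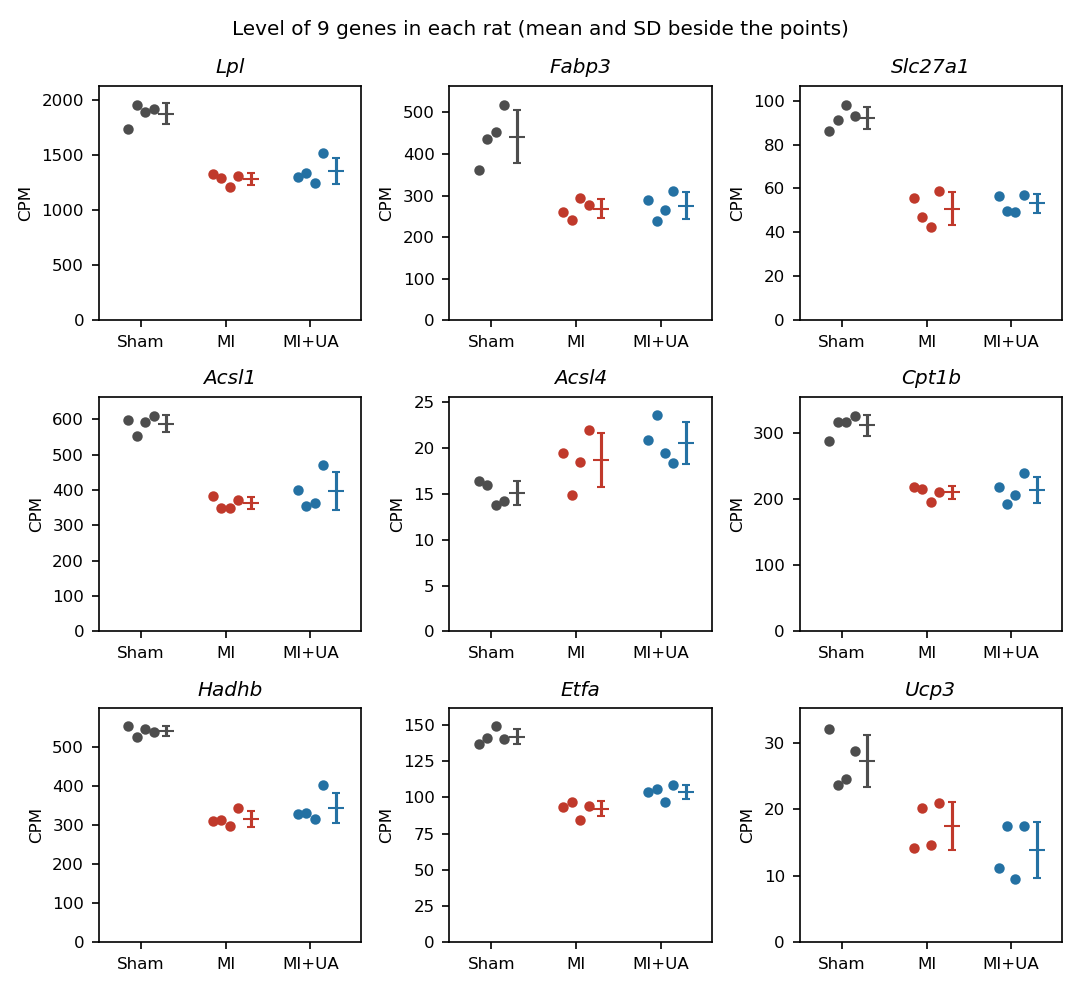
CPM of 9 genes in each rat, with Sham, MI and MI+UA along the axis, 1 point per rat and the mean with its SD beside the points; each axis starts at 0. In Lpl, Fabp3, Slc27a1, Acsl1, Cpt1b, Hadhb, Etfa and Ucp3 all MI rats sit below all Sham rats, and Acsl4 shows the opposite tilt with rat 57 within the Sham range.

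Within a library, the balance of 2 related genes does not depend on scaling. Of 6 pairs compared, 3 had every MI rat above every Sham rat. The log2 ratio of Acsl4 to Acsl1 counts was -5.18, -5.11, -5.41 and -5.42 in Sham, -4.30, -4.54, -4.24 and -4.08 in MI and -4.26, -3.90, -4.21 and -4.68 in MI+UA. It was 0.99 higher in MI than in Sham. The ratio of Ucp2 to Ucp3 was 2.93, 3.04, 3.56 and 3.35 in Sham, 4.18, 4.07, 4.56 and 3.63 in MI and 4.78, 3.83, 4.92 and 4.14 in MI+UA, and MI exceeded Sham by 0.89. The ratio of Acaca to Acacb was -3.26, -2.95, -2.98 and -2.84 in Sham, -2.31, -2.63, -2.04 and -2.53 in MI and -2.20, -2.06, -2.55 and -2.50 in MI+UA, and MI exceeded Sham by 0.63. Each of these 3 differences had a two-sided exact permutation p = 0.0286, the smallest that 4 rats against 4 allow. The adjusted p over 18 tests was 0.0857, so none passed the threshold. At this group size a pass would have needed most of the 18 tests to reach the smallest p, so the lack of one says little. The ratio of Hadha to Hadhb stayed between -1.45 and -1.21 over all 12 libraries, with MI higher by 0.047 (exact permutation p = 0.286). Cpt1a to Cpt1b differed by 0.063 (exact permutation p = 0.629) and Angptl4 to Lpl by 0.28 (exact permutation p = 0.629), both with overlap. In MI+UA versus MI all 6 pairs overlapped, and the adjusted p-values were at least 0.836.

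**Figure D3:**
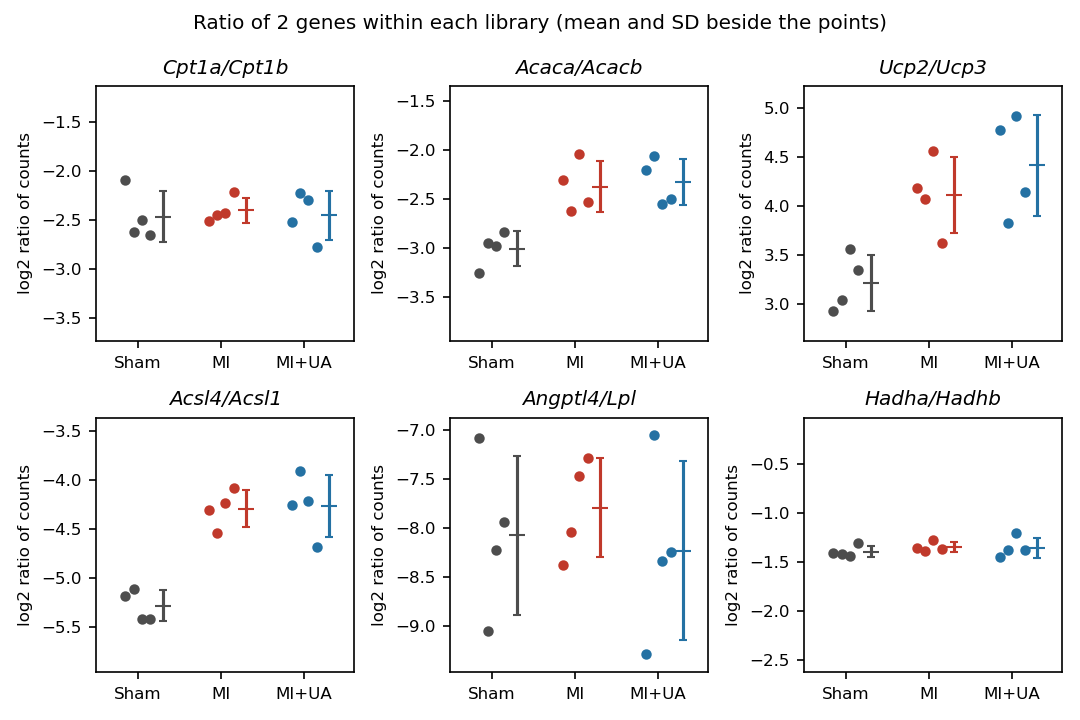
Log2 ratio of the counts of 2 genes within each library, 1 point per rat in Sham, MI and MI+UA with the mean and SD beside the points; all 6 panels span the same range of 2.6. Acaca/Acacb, Ucp2/Ucp3 and Acsl4/Acsl1 are higher in every MI rat than in any Sham rat, and Hadha/Hadhb is nearly level.

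MI+UA was compared with MI to ask what UA did after infarction, and 0 of the 40 genes were called in either direction by edgeR, as were 0.0% of all genes tested. DESeq2 called 0 of the 40 as well. An unadjusted p-value under 0.05 was found for 3 genes, Etfa, Etfdh and Slc27a6, beside 3.79% of all genes tested. Their adjusted p-values in edgeR were no lower than 0.9997. Etfdh differed by 0.22 (SE 0.088) and Etfa by 0.17 (SE 0.075) on the log2 scale, higher in MI+UA. For Etfa the lowest MI+UA rat, 64, was just above the highest MI rat, 57, while for Etfdh rat 64 lay among the MI rats. Slc27a6 was also apart, with 45 counts over the MI+UA group and 15 over MI. Etfa and Slc27a6 were the 2 genes of 40 whose groups did not overlap, against 2.34% of all genes tested.

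The 30 genes that were lower in MI than in Sham had log2 fold changes between -0.31 (Ucp3) and 0.22 (Etfdh) in MI+UA versus MI, with standard errors from 0.075 to 0.18. The median over the 40 genes was 0.035, against 0.0047 over all genes tested, and 23 of the 40 had a positive value. With rat 66 counted in MI the positive values fell to 11 and the median to -0.046, and without rat 66 they were 19 and -0.012. Rat 66 had the highest CPM of the 4 MI+UA rats at 26 of the 40 genes and at 25 of the 30 that were lower in MI. The sign of the median over the pathway thus depended on where rat 66 was counted. Of the MI+UA rats, rat 66 also had the highest mean log2 level of cardiomyocyte markers relative to Sham, -0.23 against -0.53 to -0.27. Its fibroblast markers were lowest (0.78 against 1.01 to 1.55), as were its macrophage markers (0.63 against 0.88 to 1.41). The part of these differences in the values of rat 66 was not tested.

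**Figure D4:**
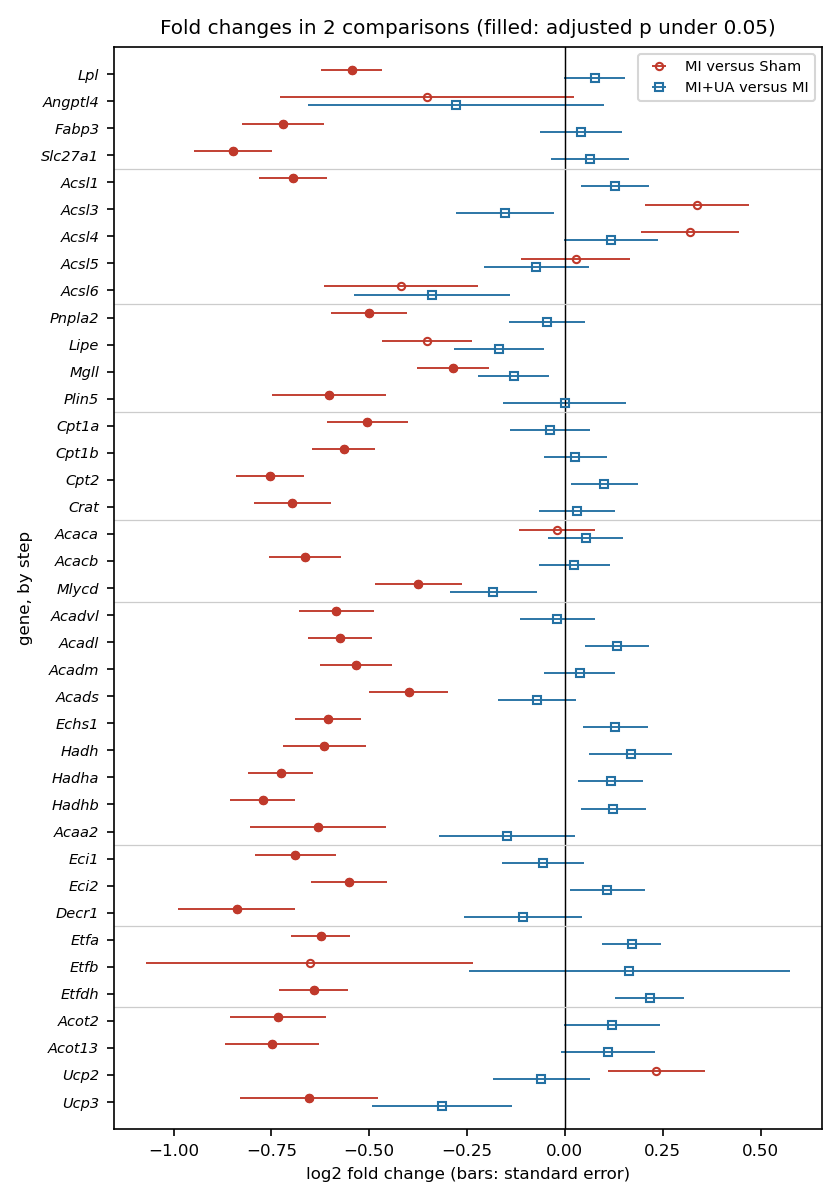
Log2 fold change of 39 genes, grouped by step, with its standard error as a bar, for MI versus Sham (red circles) and MI+UA versus MI (blue squares); filled symbols have an adjusted p under 0.05. Both comparisons share the MI rats. Most red symbols lie left of 0 and are filled, the blue squares are all open and lie between -0.34 and 0.22, and Slc27a6 is left out because its Sham counts were 0.

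MI+UA versus Sham shares the Sham rats with the first comparison and the MI+UA rats with the second. There 32 of the 40 genes were lower, where 4.27% of all genes tested were, and 2 were called higher, Acsl4 and Slc27a6, where 5.16% were. The median log2 fold change was -0.55, against 0.023 over all genes tested. Every MI+UA rat lay below every Sham rat at 28 of the 40 genes and at 6.46% of all genes tested. Beside the 30 genes lower in MI, Lipe (log2 fold change -0.52, SE 0.11, adjusted p = 0.00556) and Acsl6 (log2 fold change -0.76, SE 0.20, adjusted p = 0.0187) were called lower here. Acsl4 was called higher (log2 fold change 0.44, SE 0.13, adjusted p = 0.0303) with all MI+UA rats above all Sham rats. The call of Acsl6 was lost without Sham rat 32 or MI+UA rat 58 (adjusted p up to 0.0847). That of Acsl4 was lost without Sham rat 32 or 38 or MI+UA rat 29 or 58 (adjusted p up to 0.0973). The largest fall of the list in this comparison was that of Ucp3 (log2 fold change -0.97, SE 0.18, adjusted p = 0.00138).

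Other genes of fat handling, taken from lists set by function, were counted in the same fit of MI versus Sham. Of 17 further mitochondrial acyl-CoA genes, 7 were lower and 0 higher, with a median log2 fold change of -0.40. They were led by Ech1, an isomerase of dienoyl-CoA, at 275, 265, 275 and 286 (Sham), 148, 143, 163 and 183 (MI) and 154, 139, 144 and 195 CPM (MI+UA) (log2 fold change -0.79, SE 0.10, adjusted p = 3.30e-05), and Acsf2, an acyl-CoA synthetase of medium chains (log2 fold change -0.67, SE 0.10, adjusted p = 0.000182). Of 13 genes of peroxisomal oxidation, 6 were lower and 0 higher, with a median of -0.39. The largest falls among them were those of Ehhadh (log2 fold change -0.94, SE 0.25, adjusted p = 0.0192) and Amacr (log2 fold change -0.70, SE 0.19, adjusted p = 0.0201). Ehhadh lost its call without Sham rat 12 or 17 or MI rat 61 (adjusted p up to 0.108) and Amacr without Sham rat 17 or 38 (adjusted p up to 0.0756).

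Of 10 other uptake and binding genes, 2 were lower and 0 higher (median log2 fold change -0.41). Gpihbp1, which anchors lipoprotein lipase to the capillary wall, was one, at 11.7, 11.7, 13.5 and 13.4 (Sham), 4.97, 6.43, 8.72 and 9.29 (MI) and 5.43, 5.27, 10.6 and 10.2 CPM (MI+UA) (log2 fold change -0.77, SE 0.22, adjusted p = 0.0298). Its groups did not overlap, and its call was lost without Sham rat 32 or 38 or MI rat 36 or 57 (adjusted p up to 0.0999). Got2, a mitochondrial aminotransferase also described as a fatty acid binding protein of the membrane, was the other (log2 fold change -0.59, SE 0.083, adjusted p = 9.22e-05). Fabp4, a binding protein of fat cells and capillaries, was called lower in MI+UA versus Sham (log2 fold change -0.54, SE 0.11, adjusted p = 0.00341). Of 16 other droplet and triglyceride genes, 5 were lower and 0 higher (median -0.35), led by Gpam, the acyltransferase that starts glycerolipid synthesis (log2 fold change -0.76, SE 0.11, adjusted p = 0.000146), and Plin4, a droplet coat protein (log2 fold change -0.46, SE 0.11, adjusted p = 0.00829). Of 6 other carnitine genes, 2 were lower and 0 higher. These were Slc25a20 and Aldh9a1, an aldehyde dehydrogenase of carnitine synthesis (log2 fold change -0.26, SE 0.080, adjusted p = 0.0392), whose call was lost with no filter and without any of the 4 Sham rats or MI rat 57, 61 or 89 (adjusted p up to 0.115).

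Fatty acid synthesis was the one of these lists with genes called higher. Of 10 genes, 4 were higher and 1 lower in MI, and the median log2 fold change was 0.32. The number higher was 2 without Sham rat 12 or 32 and at most 5 in any other fit. One of the 4 was Scd, a desaturase chosen for mention after its values were seen, which had 6.36 CPM in MI rat 36 and 0.0815 to 0.623 CPM in the other MI rats, against 0 to 0.433 CPM in Sham. Its call (edgeR adjusted p = 0.0457) was not made without that library (adjusted p = 0.601), in DESeq2, without any of the 4 Sham rats or with rat 66 counted in MI. Scd passed the minimum of 10 counts only through the infarcted groups, so its call is a description and supports nothing. Fasn, fatty acid synthase, measured 9.79, 11.7, 10.4 and 10.6 CPM in the Sham rats, 18.5, 15.7, 19.4 and 15.8 CPM in the MI rats and 17.1, 17.5, 16.5 and 14.1 CPM in the MI+UA rats (log2 fold change 0.71, SE 0.12, adjusted p = 0.000614). Scd2, a stearoyl-CoA desaturase, measured 39.8, 48.8, 50.5 and 41 CPM in the Sham rats, 63.2, 56.3, 75.6 and 84.2 CPM in the MI rats and 79.5, 88.5, 69.2 and 61.4 CPM in the MI+UA rats (log2 fold change 0.64, SE 0.13, adjusted p = 0.00235). In both genes all MI rats and all MI+UA rats were above all Sham rats.

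Of the 11 PPAR, ERR and PGC-1 regulators, 4 were lower and 0 higher in MI (median log2 fold change -0.25). Ppargc1a, which encodes PGC-1 alpha, measured 48.8, 51.7, 50.2 and 52.5 CPM in the Sham rats, 39.7, 31.7, 30.8 and 36.3 CPM in the MI rats and 40.9, 32.5, 31.7 and 44.0 CPM in the MI+UA rats (log2 fold change -0.55, SE 0.11, adjusted p = 0.00241). Rxrg, a retinoid receptor that pairs with PPARs, measured 58.6, 47.1, 52.2 and 58.1 CPM in the Sham rats, 31.9, 34.5, 32 and 32.8 CPM in the MI rats and 30.0, 37.5, 30.7 and 42.9 CPM in the MI+UA rats (log2 fold change -0.72, SE 0.11, adjusted p = 0.000207). For both, the MI rats were below the Sham rats without overlap. Esrrb, an ERR receptor, was also called lower (log2 fold change -0.78, SE 0.22, adjusted p = 0.0226), but not without Sham rat 12 or 38 or MI rat 57, 61 or 89 (adjusted p up to 0.0754). Of 7 other known PPAR targets, 2 were lower, Ehhadh and Pdk4, a kinase that holds back glucose oxidation. Pdk4 measured 1428, 932, 1308 and 1264 CPM in the Sham rats, 525, 800.2, 592 and 910.2 CPM in the MI rats and 288, 954, 411 and 761 CPM in the MI+UA rats (log2 fold change -0.80, SE 0.25, adjusted p = 0.0448). It lost its call in DESeq2, under filterByExpr and without Sham rat 12, 32 or 38 or MI rat 36, 57 or 61 (adjusted p up to 0.13). In MI+UA versus MI, edgeR called 0 of the 88 genes of these 8 lists, DESeq2 called 0 genes of any kind, and 2, Fabp4 and Scd, had an unadjusted p-value under 0.05.

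Fat cells also express Lpl, Lipe and Fabp4, which stand on the adipocyte list. Of the 8 adipocyte markers tested in MI versus Sham, 1, Lpl itself, was called lower and 0 were called higher. The fitted change was above 0 for 5 of them, Adipoq, Plin1, Cfd, Pck1 and Tshr, and below 0 for 3, Lpl, Lipe and Fabp4. An unadjusted edgeR p-value under 0.05 was found for 6 of the 8, beside 4338 of all 18182 genes tested. The mean log2 CPM of the list, relative to the Sham mean, ranged from -0.18 to 0.20 in Sham, from -0.46 to 1.27 in MI and from 0.031 to 0.63 in MI+UA, and the highest rat was MI rat 36. Adipoq had 0 CPM in all Sham rats and reached 2.12 CPM in MI rat 36. Plin1 was at most 0.251 CPM in Sham and at most 1.17 CPM in any rat, also in MI rat 36. Both passed the minimum of 10 counts only through the infarcted groups, so their fitted changes are a description and support nothing. Cidec, Lep, Retn and Ucp1 had fewer than 10 counts in total and were not tested. The part of fat cells in the results for Lpl and Lipe was not tested.

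**Figure D5:**
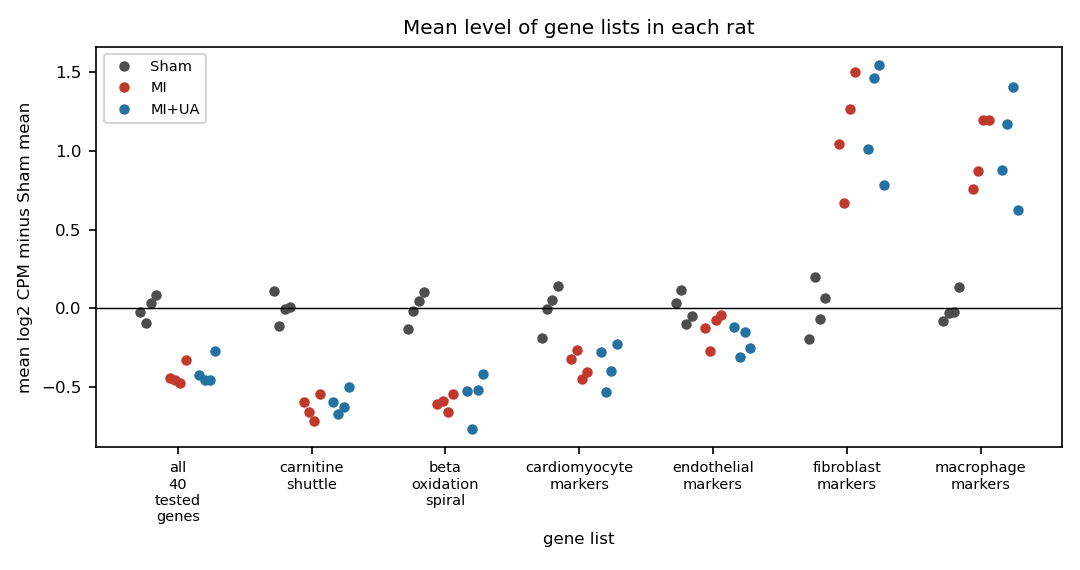
Mean log2 CPM of the genes of each list in each rat, less the mean of the Sham rats, with Sham in grey, MI in red and MI+UA in blue. The carnitine shuttle and the beta oxidation spiral sit below 0 in every MI and MI+UA rat, cardiomyocyte markers do too, and fibroblast and macrophage markers sit above 0.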

How the data were processed

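RNA-seq was performed on formalin-fixed, paraffin-embedded sections of the middle heart of 12 rats, 4 per group, with 1 library per rat. Per the labels, RNA is listed as polyA while the library protocol describes a strand-specific kit with depletion of ribosomal RNA. The authors mapped read pairs to mRatBN7.2 with STAR 2.6.1c, counted reads per Ensembl gene with HTSeq and deposited raw counts per gene without normalization. The strand setting of counting is not given in the sources used here. The 5 summary lines of the table, which took 51.7% to 57.1% of the total of each library, were left out. The study gives different doses of UA and different starts of dosing in its text and its methods, so neither is stated. The labels count 5 samples for MI+UA; the one set aside by the authors as an outlier was not analysed here.

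Testing used genes whose counts over the 12 libraries summed to at least 10, with edgeR 4.0.16 (glmQLFit and glmQLFTest, TMM, 3 groups in one fit) in R 4.3.3, with Benjamini-Hochberg adjustment over 18182 genes and a threshold of 0.05. DESeq2 1.42.0, filters, scalings, the group of rat 66 and leaving out each rat were alternatives. The procedure was tested on counts simulated for MI versus Sham. It recovered 13 of 50 genes changed by 0.5 on the log2 scale and 32 of 50 changed by 1. It also called 12 of 17277 unchanged genes. Changes near 0.5 would thus often be missed. Ratios used count + 0.5 and two-sided exact permutation tests. Counts of 2 libraries of one group differed more than sampling noise in every pair. The rats are separate animals, numbered by the labels, and no batch is named. The 41 genes, their steps and the other lists were chosen with earlier results of these data known. Genes called in any comparison or without overlap got values per rat; other pathway genes were named where called, among the 2 largest changes of their list and with a mean log2 CPM of 1 or more, and Slc25a20 and Slc22a5 always. A gene that this rule names is not reported here. Intervals and floors cover counting error only.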

Additional observations from a re-analysis of the deposited data

Results flagged for a closer look

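Within the 120 sets of 4 rats formed by 40 genes and 3 groups, 4 held a rat whose gap to the nearest of the others was, on the log2 CPM scale, a larger part of the range of the group than Dixon's 95% critical value for 4 samples allows. Chance alone flags about 1 set in 20, here 6. Sham rat 17 was low in Lipe, at 37.8 CPM against 49.7 to 50.8 CPM in the other Sham rats, and in Eci2, at 62.8 CPM against 69.2 to 70.5 CPM. Sham rat 38 was high in Eci1, at 37.0 CPM against 33.6 to 34.0 CPM. MI rat 61 was low in Etfb, at 0.934 CPM or 9 counts against 1.41 to 1.47 CPM. In Eci1 and Eci2 all Sham rats remained above all MI rats.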

How the results depend on the processing

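Of the 31 genes called in MI versus Sham, 27 were called in each of up to 15 alternatives that gave an adjusted p, and Mgll, Mlycd, Acaa2 and Ucp3 were not. Slc27a6 is counted among the 27, though its call supports nothing. DESeq2 gave no adjusted p for Slc27a6, and filterByExpr left it out. The number of genes of the pathway called lay between 30 and 32 under other tools, filters and scalings and between 27 and 32 without single rats, and the median of their log2 fold changes between -0.61 and -0.55. In MI+UA versus Sham 32 of 34 calls, that of Slc27a6 among them, held wherever an adjusted p was given, with Acsl4 and Acsl6 as the exceptions. In MI+UA versus MI the number called was 0 in each alternative. Over all genes edgeR called 0, but 3 with no filter and 1 without MI rat 36, and 0 without any other single rat. Acsl5 in MI versus Sham changed sign with rat 66 counted in MI (-0.019) and ranged from -0.049 to 0.17 without single rats. Angptl4 ranged from -0.58 to 0.027 and Acaca from -0.091 to 0.046. The log2 ratio of Cpt1a to Cpt1b changed sign with rat 66 counted in MI (-0.012) and ranged from -0.00054 to 0.19 without single rats, and that of Angptl4 to Lpl from -0.043 to 0.61. The cause was not tested. Scalings moved the median log2 fold change of all genes by less than 0.1. No paired analysis was possible because each rat belongs to a single group. Low counts limit Etfb and Slc27a6, with at most 34 and 16 counts in a library.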
